A study of Mus musculus with 2 samples.

Results

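The genes described here are the members of the TNF and TNF receptor superfamily that carry numbered family symbols, 20 receptors (Tnfrsf) and 9 ligands (Tnfsf), 29 of the 21877 genes on the array. Membership was set by symbol alone, from the annotated table that the authors deposited, but the symbol pattern was chosen with earlier results of these data known. Each of the 29 was measured by 1 probe set. Both groups were mouse CD8 T cells kept in culture with Tc1 cytokines, which drive CD8 T cells toward interferon gamma production and killing. One culture had no further treatment and the other had cholesterol added, and the question was which genes differ between them. The sources used here do not state the mice's strain, sex or age, the organ the cells came from, or how much cholesterol was given, for how long and in what vehicle. Each group had 1 array, so the values below carry no replicate error and no test, and the number of arrays limits their precision.

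TNF superfamily ligands are mostly trimeric membrane proteins, some of them shed, and they act by clustering receptors of the TNF receptor superfamily on the same or a neighbouring cell. Receptors with a death domain can start apoptosis, and receptors without one recruit TRAF adaptors and turn on NF-kappaB and survival genes. In CD8 T cells, OX40, 4-1BB, GITR, CD30, HVEM and TNFR2 are known as costimulatory receptors, most of them raised by activation, and TRAIL is known as a death ligand.

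The arrays give a signal per probe set in the authors' linear units, and signals of all probe sets ran from 3.24 to 11607. The detection limit used here was the 95th percentile of the 5222 negative control probe sets, which was 130.3 without and 121.8 with cholesterol, and a gene at or below it is called within the negative controls. All 8 CD8 T cell markers exceeded it on both arrays, with Cd8a at 3274 untreated and 3780 with cholesterol. Differences are log2 of the cholesterol signal minus log2 of the untreated signal. Counts of differences were taken over genes with a signal of at least 47.4, the median over gene-level probe sets, on 1 or both arrays, which 11327 genes and 25 of the 29 members did. Among those 11327 genes the median difference was 0.049 and the median absolute difference 0.16. As a gauge of size, the central 95% of differences was taken in 5 bands of signal, and it narrowed from -0.88 to 0.76 in the dimmest band to -0.34 to 0.45 in the brightest.

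Of the 29 members, 14 exceeded the negative controls on both arrays, 5 on 1 array and 10 on neither. Of all genes, 32.5% exceeded them on both arrays and 35.6% on at least 1. Of the 20 receptors, 14 exceeded them on at least 1 array and 11 on both. Of the 9 ligands, 5 did so on at least 1 array and 3 on both. The receptors past the limit on both arrays were Tnfrsf1a, Tnfrsf1b, Tnfrsf4, Tnfrsf8, Tnfrsf9, Tnfrsf10b, Tnfrsf13b, Tnfrsf13c, Tnfrsf14, Tnfrsf18 and Tnfrsf26, and the ligands were Tnfsf4, Tnfsf8 and Tnfsf10. The negative controls have a long upper tail, and their 99th percentile was 917 untreated and 855 with cholesterol. At that stricter limit 3 receptors (Tnfrsf4, Tnfrsf9 and Tnfrsf18) passed on both arrays and Tnfrsf26 on the cholesterol array, while no ligand did. Of all genes, 6.62% passed it on at least 1 array.

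**Figure D1:**
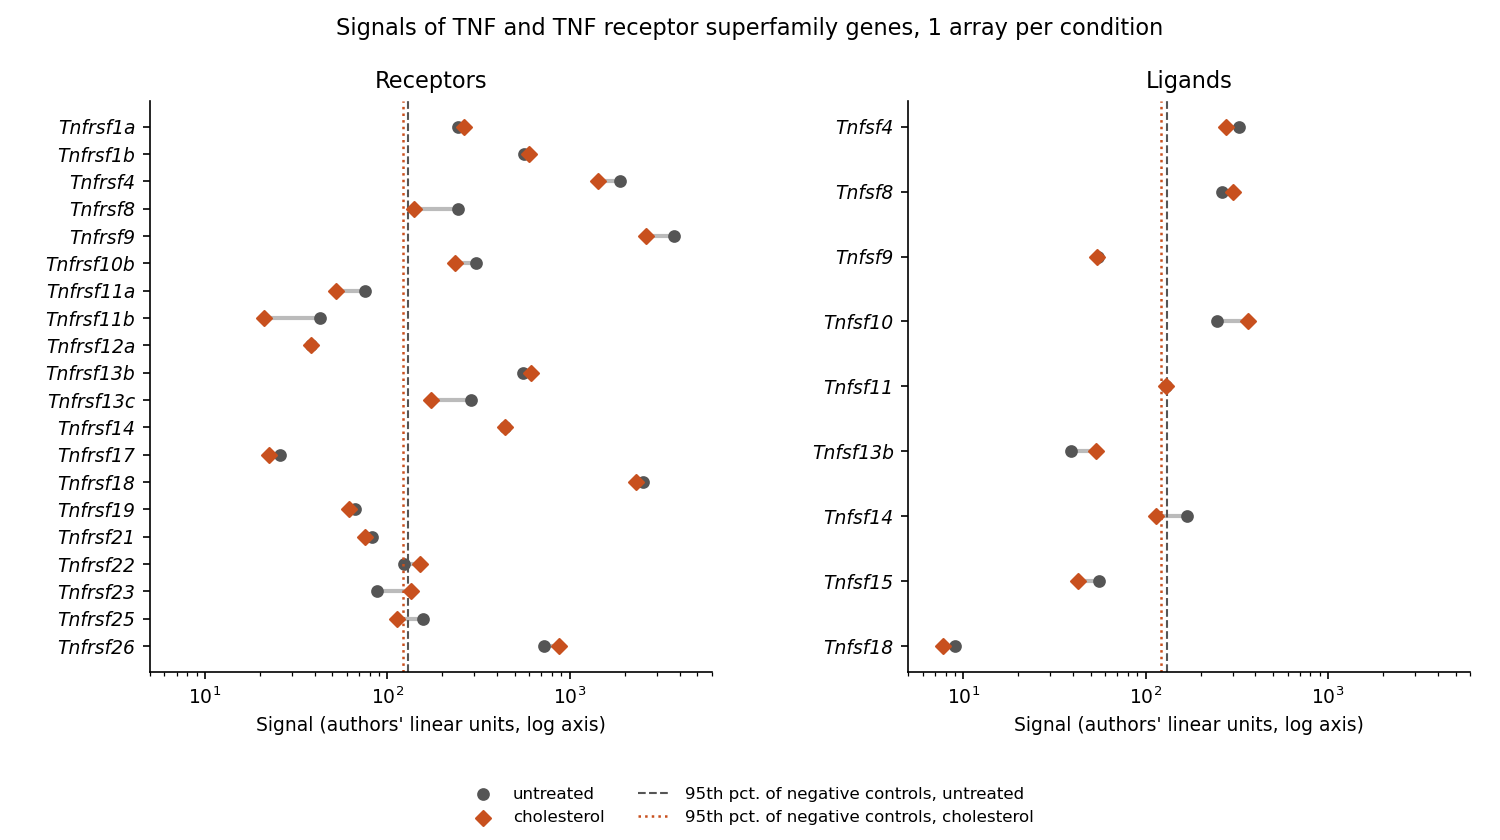
Signals of the 20 receptors and 9 ligands on the untreated array (grey circles) and the cholesterol array (orange diamonds), in the authors' linear units on a log axis, in the order of their family numbers. The dashed and dotted lines mark the 95th percentile of the negative controls, 130.3 and 121.8. Tnfrsf4, Tnfrsf9 and Tnfrsf18 lie far to the right of both lines on both arrays, and 10 genes lie to the left of them on both.

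In the deposited signals, Tnfrsf8 and Tnfrsf13c were past 1.5-fold lower with cholesterol and Tnfrsf23 past 1.5-fold higher, together 3 of the 25 members past this brightness filter. Tnfrsf23 lay within the negative controls untreated, so its fold is bounded only at 1.04. Of all genes past the filter, 5.94% differed by that much, 2.72% lower and 3.22% higher. Of the 14 members above the negative controls on both arrays, 2 were past 1.5-fold, against 2.53% of all such genes. At 2-fold, the count of members was 0, against 0.821% of all genes. Of the 25 members, 15 were lower at any size, 9 higher and 1 equal, while 40.4% of all genes past the filter were lower. Of the 14 members above the negative controls on both arrays, 7 were lower, 6 higher and 1 equal, against 37.2% of all such genes lower. Of the 25, 5 lay outside the central 95% of their band of signal (Tnfrsf4, Tnfrsf8, Tnfrsf9 and Tnfrsf13c below it and Tnfsf10 above it), where 5.03% of all genes lie. The median difference was -0.13 over the 20 receptors and -0.014 over the 9 ligands, and with both arrays centred on their medians it was -0.084 for the receptors and 0.029 for the ligands. Over the 14 receptors above the negative controls on at least 1 array the median was -0.066. With the superfamily genes under other symbols added, it was -0.092 for receptors and -0.13 for ligands, so the order of the receptor and ligand medians depends on which genes are included.

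**Figure D2:**
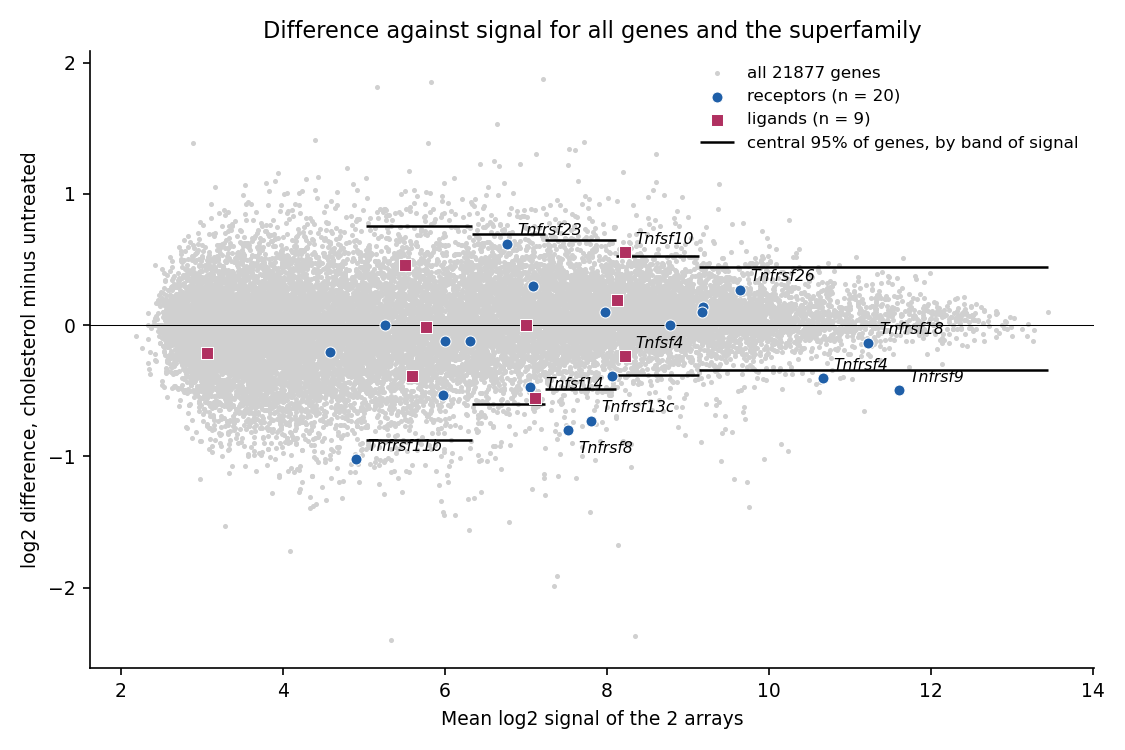
The log2 difference, cholesterol minus untreated, against the mean log2 signal of the 2 arrays for all 21877 genes (grey), with the 20 receptors as blue circles and the 9 ligands as red squares. The black bars mark the central 95% of differences in each of the 5 bands of signal past the brightness filter. Tnfrsf4, Tnfrsf8, Tnfrsf9 and Tnfrsf13c lie below the bars of their bands and Tnfsf10 above.

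Among the costimulatory receptors, 4-1BB and OX40 were lower with cholesterol, both well clear of the negative controls, and GITR differed little. Tnfrsf9, which encodes 4-1BB, a receptor that supports survival and expansion of activated CD8 T cells, had a signal of 3712 untreated and 2633 with cholesterol. That is 1.41-fold lower, a log2 difference of -0.50. Tnfrsf4, which encodes OX40, a costimulator of activated T cells, had 1878 untreated and 1422 with cholesterol. It was 1.32-fold lower, a difference of -0.40. Both differences lay below -0.34, the lower end of the central 95% of genes of similar signal. Tnfrsf18, which encodes GITR, the neighbour of Tnfrsf4 in the GRCm38.p6 RefSeq annotation, had 2517 untreated and 2297 with cholesterol, a difference of -0.13 that lay inside that range. For these 3 receptors the untreated array was the higher of the 2.

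CD30 had the largest difference among the receptors above the negative controls on both arrays. Tnfrsf8, which encodes CD30, a receptor of activated T and B cells, had a signal of 243 untreated and 139.7 with cholesterol, which is 1.74-fold lower at a difference of -0.80. The central 95% of its band was -0.49 to 0.65. With cholesterol its signal stood only a little above the limit of 121.8. Its neighbour in the annotation, Tnfrsf1b, had a difference of the other sign, given below.

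Tnfrsf25, which encodes DR3, a receptor with a death domain that costimulates T cells, had a signal of 157 untreated, above the limit, and 113 with cholesterol, within the negative controls. Against the limit on the cholesterol array it was at least 1.29-fold lower, with no allowance for noise between the arrays. Its log2 difference of -0.47 lay inside the central 95% of its band. Tnfrsf14, which encodes HVEM, the receptor of LIGHT and of the inhibitory receptor BTLA, was listed with the same signal of 441 on both arrays. Signals equal to the last deposited digit occurred in 560 of the 22206 gene-level probe sets, 2.52%, and also in Tnfrsf12a, and an exact 0 is not read here as a sign of stability.

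The upstream sequences of Tnfrsf8 and Tnfrsf9 are shown because, of the members, these were the 2 whose promoter windows matched an NF-kappaB consensus, the factor downstream of many of these receptors, and both were lower with cholesterol. They were picked after these values were seen. The sequences are from RefSeq, build GRCm38.p6, on the gene's strand, 250 bases that end just before an annotated start. Capitals mark matches to the NF-kappaB consensus, 10 bases long and searched on both strands, and to the AP-1 motif TGANTCA.
Tnfrsf8, chr4:145315165-145315414, minus strand: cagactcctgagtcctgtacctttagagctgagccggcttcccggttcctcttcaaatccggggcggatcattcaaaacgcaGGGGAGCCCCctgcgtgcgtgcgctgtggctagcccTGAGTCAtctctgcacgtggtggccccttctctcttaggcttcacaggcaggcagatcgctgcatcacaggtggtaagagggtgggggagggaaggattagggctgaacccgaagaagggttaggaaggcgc
Tnfrsf9, downstream start, chr4:150927749-150927998, plus strand: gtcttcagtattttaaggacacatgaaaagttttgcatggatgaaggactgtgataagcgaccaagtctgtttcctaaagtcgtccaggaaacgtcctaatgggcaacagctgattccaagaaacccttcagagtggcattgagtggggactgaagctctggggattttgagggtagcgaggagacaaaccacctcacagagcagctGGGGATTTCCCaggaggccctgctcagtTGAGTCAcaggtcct
Tnfrsf9, upstream start, chr4:150919905-150920154, plus strand: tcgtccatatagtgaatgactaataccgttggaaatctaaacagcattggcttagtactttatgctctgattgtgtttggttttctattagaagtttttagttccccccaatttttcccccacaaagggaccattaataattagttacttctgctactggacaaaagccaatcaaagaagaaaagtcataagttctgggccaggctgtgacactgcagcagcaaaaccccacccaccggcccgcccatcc

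In the Tnfrsf8 window an NF-kappaB match began at position -168 and an AP-1 match at -132, counted from the start with -1 as the base just before it. In the window of the downstream Tnfrsf9 start, a pair of NF-kappaB matches that overlap in all but 1 base at each end began at -43 and -42, and an AP-1 match at -15. The upstream Tnfrsf9 window held neither motif, nor did the windows of Tnfrsf4 and Tnfrsf13c, which were also lower with cholesterol. Windows were found for 23 of the 29 members, 27 sequences in all, of which 2 held the NF-kappaB consensus and 4 the AP-1 motif, the other AP-1 matches being in Tnfsf13b and Tnfsf14. Among all 32851 windows of that length, 3.90% held the NF-kappaB consensus and 6.75% the AP-1 motif. The sterol regulatory motif TCACNCCAC, to which SREBP factors bind, was in 0 of the 27 sequences and in 1.05% of all windows. A match is a run of letters and not a measured binding site.

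The receptors of TNF itself were slightly higher with cholesterol. Tnfrsf1a, which encodes TNFR1, a receptor with a death domain found on most cells, had a signal of 244 untreated and 262 with cholesterol, a difference of 0.10. Tnfrsf1b, which encodes TNFR2, found mainly on lymphocytes and other immune cells, had 559.7 and 601, also a difference of 0.10. Both lay inside the central 95% of genes of their signal.

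The genes of the TRAIL system did not share 1 direction. Tnfsf10, which encodes TRAIL, a ligand that induces apoptosis, had a signal of 247 untreated and 364 with cholesterol, 1.47-fold higher at a difference of 0.56. Its band's central 95% in the deposited signals ended at 0.53. The difference was 0.60, past 1.5-fold, after each array was centred on its median. It was 0.48 after quantile normalization and 0.49 after intensity-dependent centring. Tnfrsf10b, which encodes the mouse death receptor for TRAIL, had 305 untreated and 234 with cholesterol, 1.31-fold lower at a difference of -0.38, inside the central 95% of its band. Tnfrsf22 and Tnfrsf23 encode mouse receptors that bind TRAIL without passing on a death signal. Tnfrsf22 had 123 untreated, within the negative controls, and 152 with cholesterol, above them, which is at least 1.16-fold higher. Tnfrsf23 had 87.8 untreated, within the negative controls, and 135.1 with cholesterol, at least 1.04-fold higher. Its log2 difference of 0.62 in the deposited signals is past 1.5-fold, but it was 0.58 after intensity-dependent centring and 0.54 with 16 added to each signal, short of 1.5-fold.

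Tnfrsf22 and Tnfrsf23 lie next to each other and to Tnfrsf26 in the GRCm38.p6 annotation. Tnfrsf26, a receptor of the same mouse gene cluster, had a signal of 726 untreated and 876 with cholesterol, 1.21-fold higher at a difference of 0.27, inside the central 95% of its band. All 3 genes of the cluster were higher on the cholesterol array, as were 58.6% of all genes past the brightness filter. Tnfrsf22 and Tnfrsf23 also lay inside the central 95% of their band. They are close relatives in sequence, and whether their probe sets share signal was not tested. The gene on one side of the cluster, Cars, had 253 and 294, a difference of 0.22, and the gene on the other side, Osbpl5, lay within the negative controls on both arrays.

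The receptors of BAFF and APRIL, known mainly from B cells and plasma cells, differed from each other. Tnfrsf13c, which encodes the BAFF receptor, had a signal of 288 untreated and 174 with cholesterol, 1.65-fold lower at a difference of -0.73 against a central 95% of -0.49 to 0.65. Tnfrsf13b, which encodes TACI, had 557 untreated and 614 with cholesterol, a difference of 0.14 inside the central 95% of its band. Tnfrsf17, which encodes BCMA of plasma cells, had 25.7 and 22.4, within the negative controls on both arrays. The ligand Tnfsf13b, which encodes BAFF, had 39.0 and 53.5, also within them. Of 7 B cell markers, 6 were lower with cholesterol, against 10429 of all 21877 genes. Their summed signal was 621 untreated and 409 with cholesterol. Only 2 of the 7, Cd79a (251 and 113) and Cd79b (187 and 149), exceeded the negative controls on any array, and Ms4a1 and Pax5 lay within them on both. In such bulk RNA fewer cells of a type cannot be told apart from less RNA per cell. Of 5 markers of CD4 and regulatory T cells, cells that also use OX40, GITR and CD30, 3 exceeded the negative controls, and the summed signal was 1183 untreated and 947 with cholesterol. Of those 3, Cd4 had 605 and 393, Zbtb7b 274 and 272, and Ikzf2 224 and 230.1, while Foxp3 and Cd40lg lay within the negative controls on both arrays. Of 9 markers of macrophages and dendritic cells, 6 were lower, against the same 10429 of 21877. Their summed signal was 2042 untreated and 1109 with cholesterol, and Cd74 made up most of both sums. The 3 of these above the negative controls were Cd74 (1288 and 562) and H2-Aa (398 and 215), both lower, and Cd68 (145 and 181), higher. The other markers on this list, Csf1r, Adgre1, Mpeg1, Lyz2, Itgax and Cd14, lay within the negative controls on both arrays. Whether the Cd74 and H2-Aa signals came from these cells or from B cells was not tested. NK cell markers summed to 1164 and 769.6, of which Eomes, also expressed by CD8 T cells, was the 1 of 4 above the negative controls (1038 and 655). Markers of mast cells and basophils summed to 373 on each array, with Cpa3 at 135.5 and 45.9 and Kit at 191 and 283, and all 5 stromal markers lay within the negative controls. The part of these cells in the Tnfrsf4, Tnfrsf8, Tnfrsf9 and Tnfrsf13c values was not tested. The 8 CD8 T cell markers were all higher with cholesterol, at a median difference of 0.23, where 58.6% of all genes past the brightness filter were higher. Only Cd3d (0.459) and Zap70 (0.458) lay outside the central 95% of their band, which ended at 0.447.

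Among the ligands, those of OX40 and CD30 were above the negative controls on both arrays. Tnfsf4, which encodes the OX40 ligand, had a signal of 326 untreated and 276 with cholesterol, 1.18-fold lower at a difference of -0.24. Tnfsf8, which encodes the CD30 ligand, had 262 untreated and 299.8 with cholesterol, 1.14-fold higher at a difference of 0.19. Both lay inside the central 95% of their band.

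The ligands LIGHT and RANKL lay close to the limit. Tnfsf14, which encodes LIGHT, a ligand of HVEM and of the lymphotoxin beta receptor, had 168 untreated and 115 with cholesterol, within the negative controls there, and was at least 1.38-fold lower. Its difference in the deposited signals was -0.55, inside the central 95% of its band. It passed 1.5-fold after quantile normalization (-0.61) and after intensity-dependent centring (-0.61). Tnfsf11, which encodes RANKL, a cytokine of activated T cells that drives osteoclast formation, had a signal of 128.7 on both arrays, just below the untreated limit of 130.3 and just above the cholesterol limit of 121.8. No fold is given for it.

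The remaining members lay within the negative controls on both arrays, and no fold is given for them. Among the receptors, Tnfrsf11a, which encodes RANK of osteoclast precursors and dendritic cells, had 75.7 untreated and 52.3 with cholesterol, and Tnfrsf11b, which encodes osteoprotegerin, the soluble decoy for RANKL, had 42.8 and 21.1. Tnfrsf12a, which encodes the TWEAK receptor Fn14, was listed at 38.3 on both arrays. Tnfrsf19, which encodes TROY, known from the nervous system and epithelia, had 66.7 and 61.4, and Tnfrsf21, which encodes the death receptor DR6, 82.5 and 75.8. Among the ligands, Tnfsf9, the 4-1BB ligand of antigen-presenting cells, had 54.8 and 54.2, Tnfsf15, the DR3 ligand TL1A, 55.3 and 42.3, and Tnfsf18, the GITR ligand, 9.04 and 7.78. A gene within the range of negative controls is not shown to be absent.

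A list of known binding gave 14 pairs between the 9 ligands and receptors with numbered symbols. It does not hold every known pair, and LIGHT with the lymphotoxin beta receptor is not in it. Both genes exceeded the negative controls on both arrays in 3 of the pairs, OX40 with its ligand, CD30 with its ligand, and TRAIL with its death receptor. In the OX40 pair the receptor (-0.40) and the ligand (-0.24) were both lower with cholesterol. In the CD30 pair the receptor was lower (-0.80) and the ligand higher (0.19), and in the TRAIL pair the death receptor was lower (-0.38) and the ligand higher (0.56). For 4-1BB and for GITR the receptors were well above the negative controls and the ligands within them on both arrays.

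**Figure D3:**
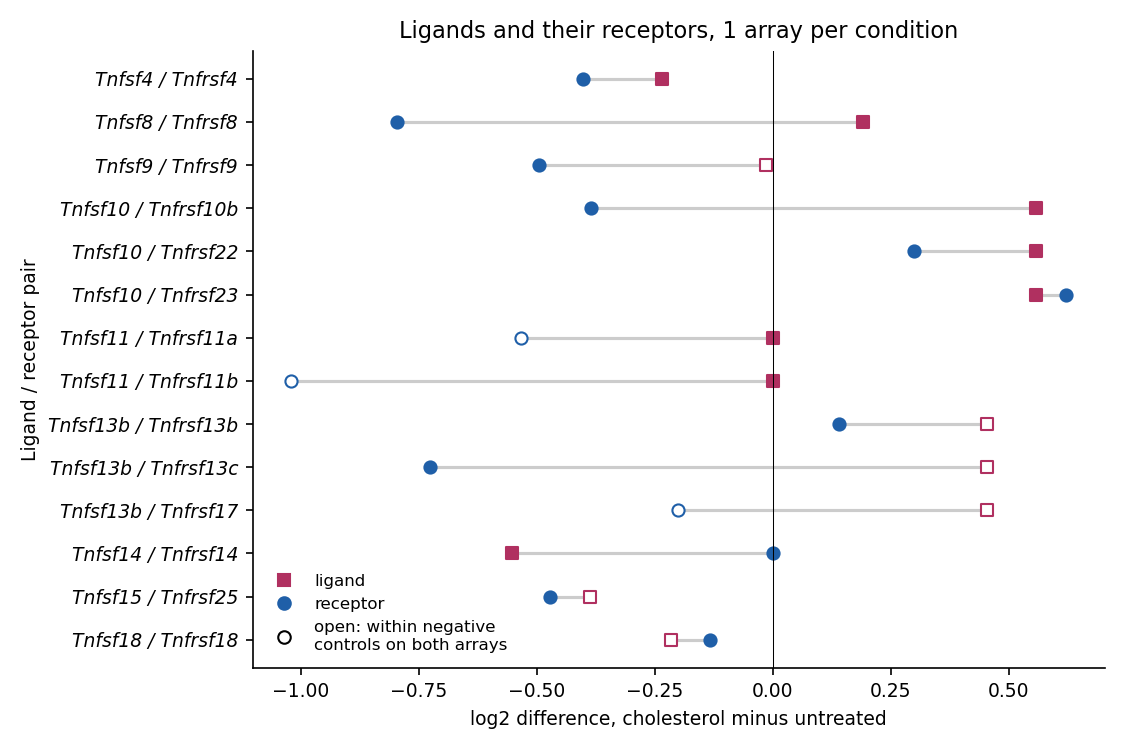
The log2 difference, cholesterol minus untreated, of the ligand (red square) and the receptor (blue circle) in each of 14 ligand and receptor pairs, with open symbols for genes within the negative controls on both arrays. The CD30 and TRAIL pairs (Tnfsf8 with Tnfrsf8, Tnfsf10 with Tnfrsf10b) have the ligand to the right of 0 and the receptor to the left, and both OX40 genes lie to the left.

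Superfamily genes that carry other symbols were described beside these, as 7 ligands and 8 receptors. The ligands Tnf and Lta were lower with cholesterol: Tnf, the inflammatory cytokine that gives the family its name, had 896 and 555, and Lta, lymphotoxin alpha, had 1145 and 507, log2 differences of -0.69 and -1.18. Ltb, lymphotoxin beta, which joins lymphotoxin alpha in a membrane trimer, had 1815 untreated and 2191 with cholesterol, a difference of 0.27. Fasl, the death ligand of cytotoxic T cells, had 257 and 193, 1.33-fold lower at -0.41. Of the receptors, Cd27, a costimulator of naive and memory T cells, had 1450.4 untreated and 2010.3 with cholesterol, 1.39-fold higher at 0.47. Relt had 341 and 434, a difference of 0.35. Fas, the death receptor, had 145 and 142, and Ltbr, the lymphotoxin beta receptor, 139.4 and 133.5. Ltb, Fasl, Relt, Fas and Ltbr lay inside the central 95% of their bands. Cd40lg, Cd70, Eda, Cd40, Ngfr, Edar and Eda2r lay within the negative controls on both arrays. The brightness filter left 11 of these 15 genes, of which Tnf and Lta were at least 1.5-fold lower and 0 at least 1.5-fold higher, against 2.72% and 3.22% of all genes. The joined TWEAK and APRIL locus Tnfsfm13, added after its values were seen, had 13.8 and 8.98, within the negative controls.

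Of 37 measured genes that carry or limit the receptors' signals, all past the brightness filter, 0 differed by 1.5-fold, against 5.94% of all genes. Of the 37, 32 exceeded the negative controls on both arrays, and among all such genes the share was only 2.53%. In a list of this size, a count of 0 is close to that share. Of the 37, 24 were higher, 12 lower and 1 equal, where 58.6% of all genes past the filter were higher. The 16 adaptors and death signalling genes had a median difference of 0.12, and the 21 kinases, ubiquitin enzymes and NF-kappaB genes one of 0.038, beside 0.049 for all genes past the filter. The 4 largest differences among genes above the negative controls on at least 1 array are given for each list. Among the adaptors, Traf2, which binds the tails of many of these receptors, had 213 untreated and 263 with cholesterol, and Ripk1, a kinase of TNFR1 signalling, 525 and 641. Birc2, a ubiquitin ligase recruited by Traf2, had 116, within the negative controls, and 142, above them. Fadd, the adaptor of death receptors, had 184 and 221. Traf5 (0.49) and Ikbkg (0.37) had larger log2 differences than these adaptors but lay within the negative controls on both arrays. Among the NF-kappaB genes, Rel, which encodes the c-Rel subunit of lymphocytes, had 934 untreated and 659.7 with cholesterol, 1.42-fold lower at -0.50, below the -0.34 that bounds the central 95% of its band. Rnf31, a subunit of the linear ubiquitin ligase, had 290.1 and 355, Cyld, a deubiquitinase that limits NF-kappaB, 167 and 204, and Tab3, a partner of the kinase TAK1, 253 and 307.

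**Figure D4:**
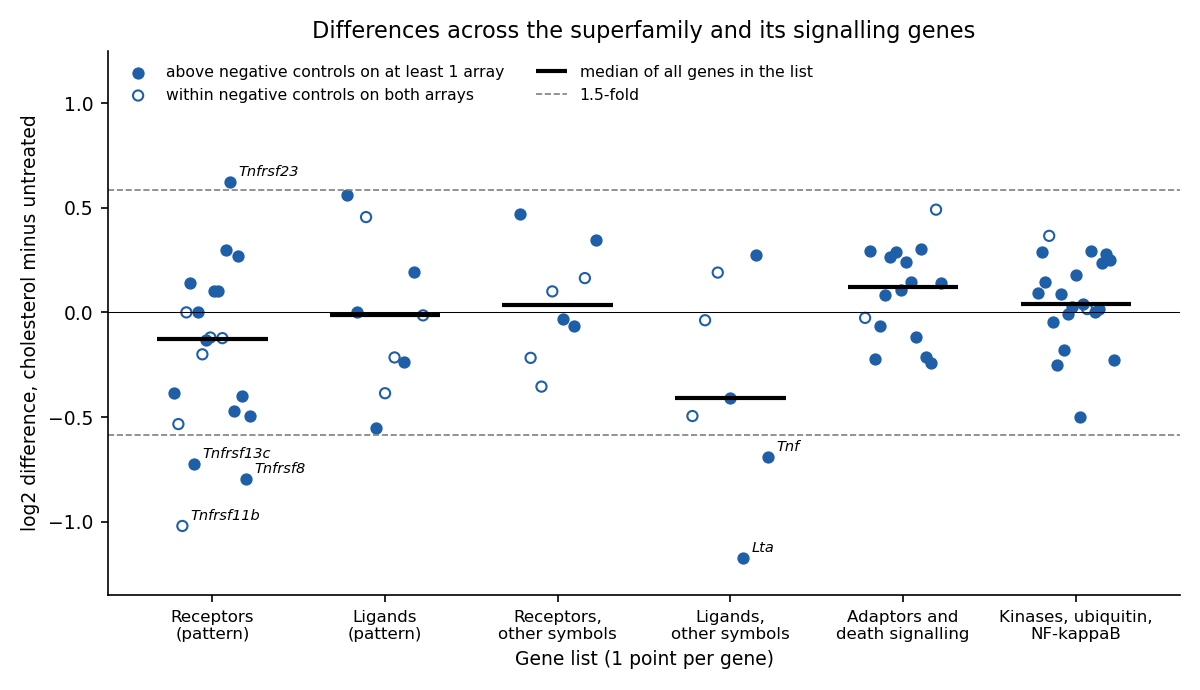
The log2 difference, cholesterol minus untreated, of each gene in the 20 receptors, the 9 ligands, the 8 receptors and 7 ligands with other symbols, the 16 adaptors and death signalling genes and the 21 kinases, ubiquitin enzymes and NF-kappaB genes. Filled points exceeded the negative controls on at least 1 array, open points on neither, black bars are medians and dashed lines mark 1.5-fold. No signalling gene lies beyond the dashed lines, while Tnfrsf8, Tnfrsf13c, Tnf and Lta lie below them as filled points and Tnfrsf23 above.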

How the data were processed

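Total RNA was labelled with biotin by whole-transcript sense target labelling, per the labels' protocols, with 1 array for each group. The authors deposited linear signal intensities for every probe set of each array (28846 probe sets, 22206 of them gene-level), and a ratio of the cholesterol to the untreated signal, which matched the quotient of the deposited signals to within 5e-10. The sources used here do not state the background correction, normalization or build. Intensities in the series value table were identical. Date-like symbols (27), empty symbols (3) and 1 symbol pair were left out. Where a gene had several probe sets, the brightest by mean log2 signal stood for it. Fold changes past 1.5-fold or 2-fold were counted, with no test, since each group had 1 array. Where a gene lay within the negative controls on 1 array, the fold is the brighter signal over the limit of the other array. The members, lists and rules were chosen with earlier results of these data known. Both signals are named for each member past the negative controls on at least 1 array or past the filter and 1.5-fold, and for the 4 largest differences per signalling list among genes past the negative controls on at least 1 array. Of the members, 29 matched RefSeq symbols (GRCm38.p6). A further listed B cell marker is not reported here. Python 3.11.15, pandas 2.3.3, numpy 2.4.6 and statsmodels 0.14.6 were used, and the counts were tested on simulated data.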

Additional observations from a re-analysis of the deposited data

How the results depend on the processing

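The negative control limit decided how many members count as expressed. At the 99th percentile, 4 members passed on at least 1 array and 3 on both, in place of 19 and 14, with 4 receptors and 0 ligands in place of 14 and 5. At the 90th percentile the counts were 21 and 20, and with 1 limit for both arrays 19 and 15. The count of members at least 1.5-fold higher was 1, but 2 after each array was centred on its median, and 0 after intensity-dependent centring or with 16 added before log2. The count at least 1.5-fold lower was 2, but 3 after quantile normalization, after intensity-dependent centring or with no filter on signal. In both directions together the count was 3, but 4 after median centring, after quantile normalization or with no filter, and 2 with 16 added. With the superfamily genes under other symbols added, 5 genes in place of 3 were past 1.5-fold, 4 of them lower in place of 2. None of the 19 genes followed singly moved by more than 0.14, the median disagreement in log2 difference between probe sets of 1 gene over 71 genes, in any of the 95 alternative values run, and 1 value, for Tnfsf11 after centring (0.044), changed sign. The 95th percentile of that disagreement was 0.65. Of the 19 genes, only Tnfrsf8 and Tnfrsf13c had a larger absolute difference, and each gene was measured by 1 probe set. The median over ligands was -0.014 and turned to 0.029 after centring. Averaging probe sets changed nothing, since each member has 1. Centring shifted every gene by the same 0.044. For single genes these 2 settings therefore could not move a value past 0.14, and their part of the 95 is no check. No paired analysis was possible because each group has 1 array, and for the same reason no replicate could be left out. Genes within the negative controls carry no reliable difference, and 10 of the 29 members are in that range on both arrays.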
